A study of Mus musculus with 53 samples.

Results

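The 31 genes described here are myelin and oligodendrocyte genes, taken as a fixed list of gene symbols, out of 54393 genes counted in both brain regions. Each gene was followed in CPM, its count scaled to 1e6 reads in genes after TMM scaling of the library sizes. The whole list was followed as a score, the mean of log2(CPM+1) over the 31 genes in each library. The list was taken by name, with earlier results of these data known.

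Oligodendrocytes are the glial cells that wrap the axons of the central nervous system in myelin, a stack of lipid-rich membrane held together by a small set of abundant proteins. Their maturation is driven by transcription factors such as Sox10, Nkx6-2 and Myrf, which turn on the genes of the myelin membrane and of its lipids. Microglia, the cells that PLX5622 removes by blocking the receptor Csf1r, are known to clear myelin debris and to exchange signals with oligodendrocytes.

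RNA came from C57BL6/J mice at postnatal day 119, from the central nucleus of the amygdala (CeA) and the medial prefrontal cortex (mPFC). No transgene or other allele is named. PLX5622 chow (1200 ppm) was given for 28 days before ethanol began. Dependence was set by chronic intermittent ethanol exposure together with two-bottle choice drinking at 15% over 4 weeks. Brains were collected 24 hours after ethanol was last given. What the non-dependent mice received in place of this exposure is not stated, since 1 protocol text stands for all groups. The CeA libraries came from 4 dependent mice on PLX5622, 5 dependent mice on control diet, 4 non-dependent mice on PLX5622 and 6 non-dependent mice on control diet. The mPFC libraries came from 9 dependent mice on PLX5622, 9 dependent mice on control diet, 9 non-dependent mice on PLX5622 and 7 non-dependent mice on control diet. Apart from number 16, which carries different diets in the 2 regions, each number in the labels was read as 1 mouse, and 15 mice gave a library from both regions. The study asks how removing microglia and making mice dependent on ethanol change gene expression in these regions.

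A CeA library held between 1062443 and 1968971 counts in genes, and an mPFC library between 1531574 and 2607438. Csf1r, the target of PLX5622, stood between 0 and 4.69 CPM in the 26 PLX5622 libraries and between 31.2 and 61.5 CPM in the 27 control-diet libraries. All 12 listed microglia genes fell with PLX5622 in each of the 4 diet comparisons. Trf, the iron carrier transferrin, gave 1 count over all 53 libraries and overlaps Gm20425 on the same strand, so its level is not described. Gjb1, a connexin of oligodendrocyte gap junctions, gave 167 counts over 51 of 53 libraries and was too low to be tested. Of the 31 genes, 29 passed the filter on low counts in the fit of both regions together, 27 in the CeA fit and 28 in the mPFC fit. Nkx6-2 was below the filter in the mPFC fit, and Ppp1r14a and Tmem125 in the CeA fit.

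In these bulk samples, fewer oligodendrocytes and less RNA per oligodendrocyte cannot be told apart. The score was highest in CeA on control diet and lowest in mPFC. In CeA it averaged 5.28 ± 0.23 in dependent PLX5622 mice, 5.50 ± 0.26 in dependent control-diet mice, 5.02 ± 0.37 in non-dependent PLX5622 mice and 5.38 ± 0.17 in non-dependent control-diet mice (SD, n = 4, 5, 4 and 6). In mPFC the same groups averaged 4.83 ± 0.20, 4.92 ± 0.12, 4.76 ± 0.18 and 4.83 ± 0.04 (SD, n = 9, 9, 9 and 7). Every CeA control-diet library lay above every mPFC library of the same diet and history, while the PLX5622 groups of the regions overlapped. Within a region all 4 groups overlapped one another.

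**Figure D1:**
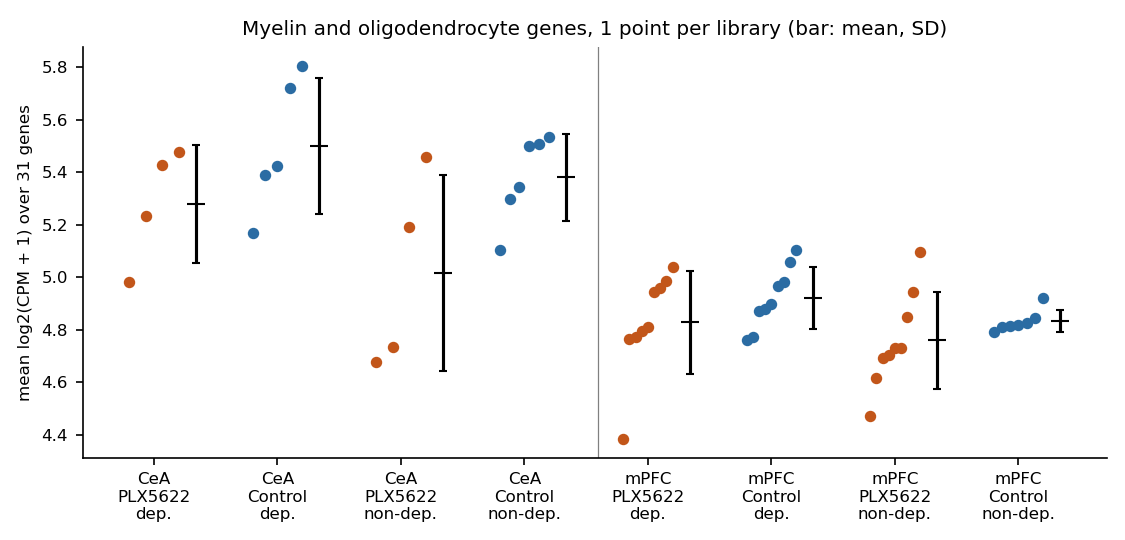
The score of the 31 genes, mean log2(CPM+1) on the y axis, is plotted for every library in the 8 groups of region, diet and dependence, with the group mean and SD. The CeA control-diet libraries lie between 5.10 and 5.81 and the mPFC control-diet libraries between 4.76 and 5.11, with no overlap within a history.

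Within the same mouse the CeA score exceeded the mPFC score in most pairs. It was higher by 0.28 to 0.93 in 4 of 4 dependent mice on control diet and by 0.29 to 0.70 in 3 of 3 non-dependent mice on control diet. On PLX5622 it was higher in 3 of 4 dependent mice, with differences of -0.01 to 0.68. In the 4 non-dependent PLX5622 mice the differences were -0.17 in mouse 47, 0.00 in mouse 23, 0.50 in mouse 46 and 0.84 in mouse 13. Cnp and Myrf were higher in CeA in all 15 mice, and Mbp, Mag, Mal, Fa2h, Tcf7l2 and Plekhb1 in 14 of 15. Aspa was higher in CeA in 7 of the 15 mice, Tmem125 in 5 and Ugt8a in 4.

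Region was the comparison in which most of the genes changed. On control diet all 11 tested genes of the myelin membrane were higher in CeA than in mPFC, and on PLX5622 6 of 11 in dependent and 5 of 11 in non-dependent mice. At least 3 of 4 transcription factors were higher in each comparison, while most genes of myelin lipid synthesis and metabolism did not pass the test. In dependent control-diet mice 21 of 29 tested genes were higher in CeA, beside 23.2% of all 13035 genes tested, with a median log2 difference of 0.76. In non-dependent control-diet mice 20 of 29 were higher, again beside 23.2% of all genes, with a median of 0.72. In dependent PLX5622 mice 15 of 29 were higher, beside 20% of all genes, with a median of 0.58. In non-dependent PLX5622 mice 12 of 29 were higher, beside 21.5% of all genes, with a median of 0.39. No gene of the list was lower in CeA in any of the 4 comparisons by edgeR's quasi-likelihood test. The median over all genes tested lay between -0.01 and 0.00 in each.

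The regions also differ in how they were handled. The CeA samples were punches of frozen brain slices (300 µm) sequenced on a NovaSeq, the mPFC samples were cut out fresh and sequenced on a HiSeq, and the counts used different annotation releases. Region, dissection, instrument and annotation therefore cannot be told apart. The PLX5622 comparisons rest on 4 CeA libraries each, the control-diet ones on 5 and 6.

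In 15 mice with both regions, a fit with the mouse as a block tested 28 genes of the list. The share of all genes higher in that fit is not given here, so its counts have no such baseline. The fit made 10 genes higher in CeA in dependent PLX5622 mice and 16 in dependent control-diet mice. The counts were 8 in non-dependent PLX5622 mice and 11 in non-dependent control-diet mice, with 0 lower in each comparison. Only 3 mice carried the last of these, and the genes no longer past the threshold there were Mobp, Mog, Opalin, Cldn11, Tspan2, Pllp, Apod, Tcf7l2 and Gsn. Of the 20 genes called in non-dependent control-diet mice, Mobp had a log2 difference of 0.76 (adjusted p = 0.188), Mog of 0.87 (adjusted p = 0.0720) and Opalin of 0.63 (adjusted p = 0.266) in that blocked edgeR fit.

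**Figure D2:**
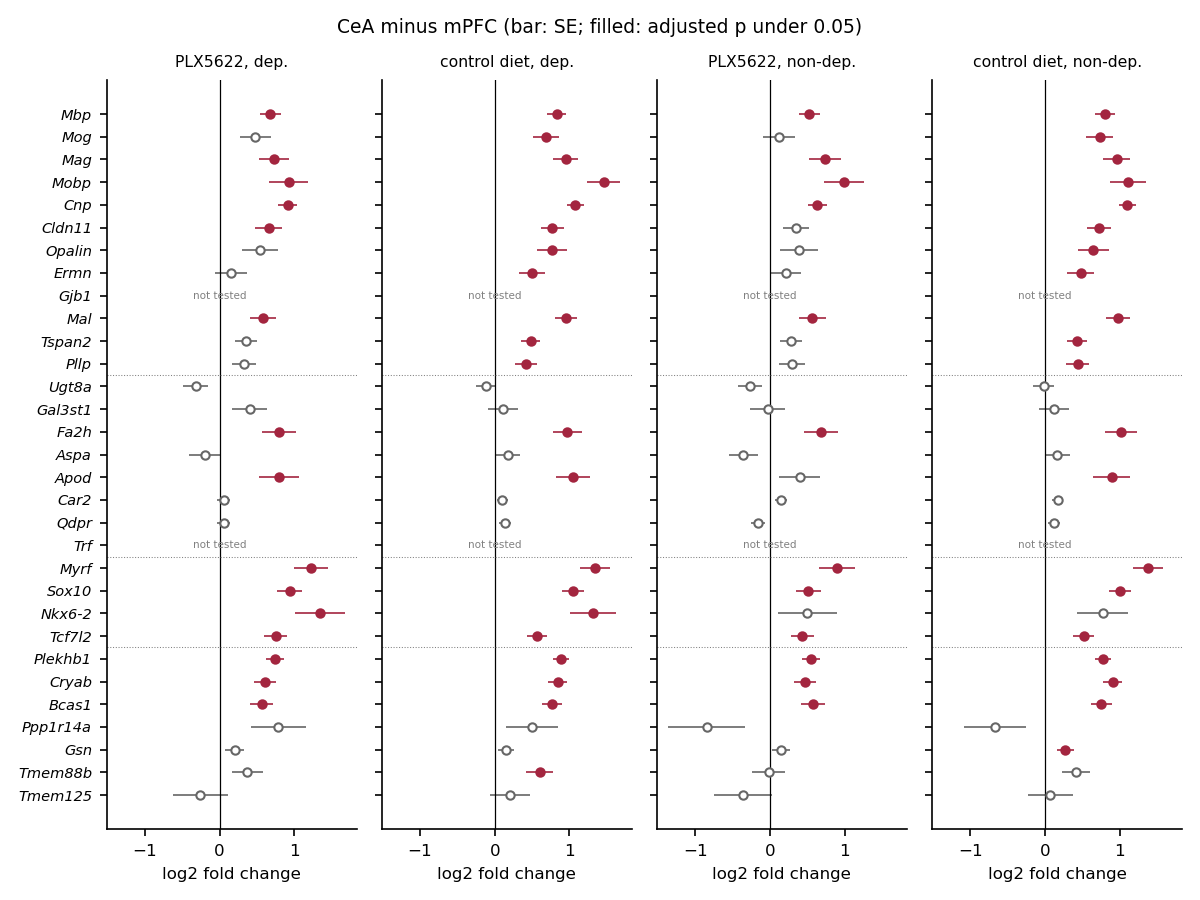
For each tested gene, the log2 fold difference CeA minus mPFC (x axis) is drawn in 4 panels, 1 for each diet and history, with bars of 1 standard error and filled points where the adjusted p was under 0.05. Filled points lie to the right of 0 in every panel, 15 and 21 of 29 in dependent mice on PLX5622 and control diet, and 12 and 20 of 29 in non-dependent mice on PLX5622 and control diet.

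Among the membrane genes, Mbp encodes myelin basic protein, which holds the inner faces of the myelin membrane together. In dependent PLX5622 mice it stood at 917, 1259.9, 1271 and 1372 CPM in CeA, against 494, 765 and 847 CPM (lowest, median, highest) in mPFC. In dependent control-diet mice it stood at 1060.3, 1271, 1292, 1604 and 1789 CPM in CeA, against 616, 787 and 966 CPM in mPFC. No CeA library of either group reached down to the mPFC range. In non-dependent PLX5622 mice the CeA libraries had 754, 808, 1203 and 1421 CPM, against 519, 695 and 923 CPM in mPFC, so that 2 CeA libraries fell inside the mPFC range. In non-dependent control-diet mice Mbp ran over 972, 1312 and 1483 CPM in CeA, against 703, 723 and 809.5 CPM in mPFC, with no overlap. The log2 differences were 0.68 ± 0.14, 0.83 ± 0.13, 0.53 ± 0.14 and 0.80 ± 0.13 (SE) in the same order, with adjusted p of 9.62e-05, 6.76e-07, 0.00211 and 1.76e-06 by edgeR's quasi-likelihood test. With the mouse as a block the adjusted p in non-dependent PLX5622 mice was 0.0679.

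Cnp encodes the phosphodiesterase that keeps cytoplasmic channels through myelin open, and it had the smallest p of the list in both control-diet comparisons. Cnp lies at chr11:100574904-100591729 on the plus strand (GRCm38) and overlaps Dnajc7 on the other strand, so its reads may be shared with that gene. In dependent PLX5622 mice Cnp had 131, 164, 169 and 189 CPM in CeA, against 67.3, 87.2 and 106.8 CPM in mPFC. Dependent control-diet mice had 152, 179.6, 186, 209 and 256 CPM in CeA, against 84.3, 92.96 and 108.998 CPM in mPFC. The regions did not overlap in either pair of groups. Non-dependent PLX5622 mice had 102.7, 104.6, 145.03 and 175 CPM in CeA, against 63.0, 80.5 and 109.997 CPM in mPFC. For non-dependent control-diet mice the CeA values were 159.5, 185 and 209 CPM, against 79.0, 85.0 and 92.1 CPM in mPFC. Only the non-dependent PLX5622 groups overlapped. The log2 differences of 0.91 ± 0.13, 1.08 ± 0.11, 0.64 ± 0.13 and 1.10 ± 0.12 passed the edgeR test with adjusted p of 7.09e-08, 2.58e-11, 7.55e-05 and 4.58e-11.

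Mobp, a basic protein of compact myelin at chr9:120149707-120181484 (plus strand), had the largest region difference of the membrane genes in all 4 comparisons by edgeR. It shares part of its span with Gm38642 on the same strand. CeA had 62.4, 78.5, 111.02 and 125 CPM in dependent PLX5622 mice, against 34.4, 44.2 and 83.8 CPM in mPFC. In dependent control-diet mice CeA had 82.2, 89.1, 94.3, 162 and 202 CPM, against 36.1, 44.4 and 62.8 CPM in mPFC. The control-diet groups were apart, and the PLX5622 groups overlapped through mPFC mouse 38, at 83.8 CPM. In non-dependent PLX5622 mice CeA had 40.0, 52.98, 79.6 and 127 CPM, against 24.8, 37.7 and 51.7 CPM in mPFC. In non-dependent control-diet mice CeA ran over 50.1, 95.8 and 119 CPM, against 25.7, 41.1 and 55.6 CPM in mPFC. Both of these pairs overlapped at their edges. The log2 differences were 0.93 ± 0.26, 1.46 ± 0.22, 0.99 ± 0.27 and 1.11 ± 0.24, with adjusted p of 0.00322, 3.67e-07, 0.00263 and 1.85e-04 in edgeR.

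Mog, the glycoprotein of the outermost myelin surface (chr17:37010743-37023398, minus strand), was higher in CeA on control diet, and its difference did not pass the test on PLX5622. It had 43.4, 44.3, 53.7 and 57.6 CPM in CeA of dependent PLX5622 mice, against 21.4, 35.1 and 47.9 CPM in mPFC. Dependent control-diet mice had 39.5, 52.1, 55.9, 68.1 and 96.5 CPM in CeA, against 30.6, 41.0 and 51.0 CPM in mPFC. Both pairs overlapped. Non-dependent PLX5622 mice fell into a low and a high pair in CeA, 20.3 and 25.5 CPM and 54.6 and 55.5 CPM, against 26.9, 33.0 and 47.2 CPM in mPFC. In non-dependent control-diet mice CeA ran over 49.5, 57.8 and 70.3 CPM, against 23.4, 36.8 and 43.4 CPM in mPFC, with no overlap. The log2 differences were 0.48 ± 0.21, 0.69 ± 0.17, 0.13 ± 0.21 and 0.73 ± 0.18, with edgeR adjusted p of 0.0609, 9.15e-04, 0.666 and 8.48e-04. With the mouse as a block the adjusted p was 0.126 in dependent control-diet mice.

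Opalin, a transmembrane glycoprotein of central myelin (chr19:41061710-41077113, minus strand), behaved like Mog in these calls. CeA of dependent PLX5622 mice had 9.06, 21.2, 21.5 and 25.4 CPM, against 6.48, 14.6 and 20.9 CPM in mPFC. CeA of dependent control-diet mice had 14.5, 24.7, 27.1, 29.4 and 31.9 CPM, against 12.1, 15.5 and 18.7 CPM in mPFC. Each CeA group overlapped mPFC through 1 low library. CeA of non-dependent PLX5622 mice had 10.3, 11.8, 15.5 and 23.7 CPM, against 5.22, 12.6 and 19.4 CPM in mPFC. CeA of non-dependent control-diet mice ran over 18.0, 21.0 and 24.9 CPM, against 8.79, 13.4 and 17.1 CPM in mPFC. Only the last pair was apart. The log2 differences were 0.54 ± 0.24, 0.77 ± 0.20, 0.39 ± 0.25 and 0.65 ± 0.21, with edgeR adjusted p of 0.0641, 9.73e-04, 0.213 and 0.00924, and 0.115 in dependent control-diet mice with the mouse as a block.

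The other membrane genes moved the same way. Mal, a proteolipid of membrane rafts, was higher in CeA in all 4 comparisons, by 0.58 ± 0.18 and 0.95 ± 0.15 in dependent mice on PLX5622 and control diet and by 0.57 ± 0.18 and 0.97 ± 0.16 in non-dependent mice on PLX5622 and control diet (log2, SE). Mag, the adhesion protein of the myelin layer that faces the axon, was higher in all 4 as well, between 0.73 ± 0.21 and 0.96 ± 0.19. Cldn11, which forms the tight junctions between myelin layers, was higher in 3 and had 0.35 ± 0.18 (edgeR adjusted p = 0.107) in non-dependent PLX5622 mice. Ermn, Tspan2 and Pllp, an actin-associated protein, a tetraspanin and plasmolipin, were higher on control diet in both histories, by 0.42 to 0.50, and passed in neither PLX5622 comparison. Reads of Ermn, Tspan2 and Pllp may include those of genes on the other strand.

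Of the transcription factors, 4 of 4 were higher in CeA in dependent mice of either diet, and 3 of 4 in non-dependent mice of either diet. Myrf is a membrane-bound factor that is cut free and turns on myelin genes, at chr19:10208272-10240748 on the minus strand. It had 13.1, 14.2, 15.2 and 17.1 CPM in CeA of dependent PLX5622 mice, against 4.07, 6.48 and 9.39 CPM in mPFC, and 12.9, 14.2, 15.6, 20.6 and 21.4 CPM in CeA of dependent control-diet mice, against 5.32, 7.13 and 8.72 CPM in mPFC. In non-dependent PLX5622 mice it had 7.58, 9.81, 10.8 and 14.8 CPM in CeA, against 1.62, 6.24 and 7.78 CPM in mPFC. In non-dependent control-diet mice it ran over 14.6, 16.4 and 21.0 CPM in CeA, against 4.29, 7.20 and 8.95 CPM in mPFC. Myrf overlapped between regions only in non-dependent PLX5622 mice, by 1 CeA library. The log2 differences were 1.22 ± 0.23, 1.34 ± 0.20, 0.90 ± 0.25 and 1.38 ± 0.20, with edgeR adjusted p of 8.39e-06, 2.12e-08, 0.00177 and 2.26e-08.

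Sox10, the factor needed for terminal differentiation of oligodendrocytes (chr15:79154908-79165240, minus strand), had 17.1, 28.3, 29.2 and 31.01 CPM in CeA of dependent PLX5622 mice, against 11.3, 12.5 and 20.8 CPM in mPFC. Dependent control-diet mice had 20.2, 28.6, 29.2, 34.0 and 40.3 CPM in CeA, against 11.1, 12.9 and 21.5 CPM in mPFC. In each of these pairs 1 CeA library lay inside the mPFC range. Non-dependent PLX5622 mice had 17.7, 20.0, 25.0 and 28.1 CPM in CeA, against 13.0, 14.9 and 20.5 CPM in mPFC. Non-dependent control-diet mice ran over 29.5, 31.1 and 35.4 CPM in CeA, against 12.3, 15.6 and 20.9 CPM in mPFC, with no overlap. Its log2 differences were 0.94, 1.04, 0.51 and 1.00, with edgeR adjusted p of 5.50e-06, 8.21e-09, 0.0105 and 2.74e-08.

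Tcf7l2, a factor of the Wnt pathway that acts in maturing oligodendrocytes and also in thalamic neurons, was higher in all 4 comparisons, by 0.75 ± 0.15 and 0.56 ± 0.13 in dependent mice on PLX5622 and control diet and by 0.43 ± 0.15 and 0.52 ± 0.14 in non-dependent mice on PLX5622 and control diet. Tcf7l2 overlaps Ppnr on the same strand. Nkx6-2, a homeodomain factor of oligodendrocytes, was low, between 2.22 and 9.91 CPM in CeA and between 0.42 and 4.96 CPM in mPFC. Nkx6-2 was higher in CeA by 1.34 ± 0.33 in dependent PLX5622 mice and by 1.31 ± 0.31 in dependent control-diet mice, with edgeR adjusted p of 7.44e-04 and 2.51e-04. In non-dependent mice its differences were 0.50 (adjusted p = 0.323) on PLX5622 and 0.77 (adjusted p = 0.0545) on control diet. Inpp5a overlaps it on the other strand.

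Of the 7 tested genes of lipid synthesis and metabolism, Fa2h and Apod were higher in CeA. Fa2h, which hydroxylates the fatty acids of myelin galactolipids, was higher in all 4 comparisons, by 0.80 and 0.97 in dependent mice on PLX5622 and control diet and by 0.68 and 1.02 in non-dependent mice on PLX5622 and control diet. Apod, a secreted lipid carrier, was higher in 3, by 0.80 ± 0.27 and 1.04 ± 0.23 in dependent mice on PLX5622 and control diet and by 0.89 ± 0.25 in non-dependent control-diet mice. Ugt8a, the enzyme that makes galactosylceramide, did not follow. It had 23.1, 33.4, 33.5 and 34.5 CPM in CeA of dependent PLX5622 mice, against 26.4, 38.4 and 49.7 CPM in mPFC, and 33.8, 34.7, 42.6, 44.7 and 45.9 CPM in CeA of dependent control-diet mice, against 37.0, 43.5 and 48.5 CPM in mPFC. The regions overlapped throughout. Its log2 differences were -0.32, -0.11, -0.27 and -0.02 in the 4 comparisons, and none passed the edgeR test. Gal3st1, which makes sulfatide, Aspa, which splits N-acetylaspartate, Car2, a carbonic anhydrase, and Qdpr, a pteridine reductase, had differences between -0.36 and 0.41 that did not pass either. Qdpr has an antisense gene on the other strand.

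Of the 7 other genes, Plekhb1, Cryab and Bcas1 were higher in CeA in all 4 comparisons. Plekhb1, a pleckstrin homology protein, had 128, 177, 179 and 196 CPM in CeA of dependent PLX5622 mice, against 67.8, 103.4 and 116.4 CPM in mPFC. It had 151, 179.6, 192, 212 and 266 CPM in CeA of dependent control-diet mice, against 95.4, 107.2 and 122.6 CPM in mPFC, so neither pair overlapped. The log2 differences were 0.75 and 0.89 in dependent mice on PLX5622 and control diet and 0.55 and 0.78 in non-dependent mice on PLX5622 and control diet. Cryab, a small heat shock protein, was higher by 0.62 ± 0.15, 0.84 ± 0.13, 0.47 ± 0.14 and 0.90 ± 0.13, and shares its locus with Hspb2 on the other strand. Bcas1, a marker of early myelinating cells, was higher by 0.56 ± 0.16, 0.76 ± 0.13, 0.58 ± 0.16 and 0.76 ± 0.14 in the same order. Tmem88b passed in 1 comparison, by 0.60 ± 0.17 in dependent control-diet mice, and so did Gsn, an actin-severing protein, by 0.27 ± 0.11 in non-dependent control-diet mice. Ppp1r14a, an inhibitor of myosin phosphatase, and Tmem125 passed in none, at counts of 1 to 20 per library.

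In total 12 genes were higher in CeA in all 4 comparisons, namely Bcas1, Cnp, Cryab, Fa2h, Mag, Mal, Mbp, Mobp, Myrf, Plekhb1, Sox10 and Tcf7l2. The share of all genes higher in all 4, with or without the mouse as a block, is not given here. With the mouse as a block 5 of these 12 passed the edgeR test in all 4, namely Cnp, Mag, Myrf, Plekhb1 and Sox10. Under that block Cryab, Fa2h, Mal, Mbp and Tcf7l2 passed in 3, Bcas1 and Mobp in 2, and Cldn11, higher in 3 comparisons without it, in 0. The 4 comparisons share no library, but they share 1 fit and its estimate of spread. Every CeA library lay above every mPFC library for 5 genes in dependent PLX5622 mice, beside 10.9% of all genes, for 13 in dependent control-diet mice, beside 10.3%, for 0 in non-dependent PLX5622 mice, beside 11.8%, and for 12 in non-dependent control-diet mice, beside 10.6%. Mbp, Cnp, Myrf, Plekhb1 and Bcas1 were the 5 in dependent PLX5622 mice and were also among the 13 and the 12. In non-dependent PLX5622 mice the count of genes past the edgeR threshold rested on mouse 13. Without its CeA library 5 genes were higher and 2 lower, the lower ones being Ugt8a (-0.53, adjusted p = 0.0108) and Aspa (-0.60, adjusted p = 0.0274). Mag and Sox10 were among those no longer past the edgeR threshold there (adjusted p = 0.0845 and 0.0881). In dependent PLX5622 mice Mag no longer passed without the CeA library of mouse 6, at 0.47 (edgeR adjusted p = 0.130). Leaving out spike-in libraries took out 3 of the 4 CeA libraries of that group, and Mag then differed by 0.50.

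Promoter sequence was read around each start site from RefSeq (GRCm38.p6) for every gene of the list with an entry, whether or not it was higher in CeA. This gave 35 promoters of 23 of the 31 genes, each reaching 250 bases before to 50 after the start. The motif CTGGNAC, described for Myrf, was looked for on both strands. It was found in 12 of these promoters (34.3%), from 10 genes that include Gjb1, Ppp1r14a and Tmem125, which were called in no region comparison, and in 19.2% of all 32544 promoters of the same length. The motif ACAAAG, described for Sox factors, was found in 11 (31.4%), from 9 genes, and in 18.7% of all promoters, and CAGCTG in 5 (14.3%), from 4 genes, and in 16.4% of all. CTGGNAC and CAGCTG share letters at their ends and can overlap, and promoters of 1 gene can share bases. These are matches of letters and do not show binding. One window each of Cnp, Mag, Mog and Plekhb1, written along the gene, shows CTGGNAC or its reverse complement in capitals, and that of Opalin shows ACAAAG.
Cnp, chr11:100574847-100574876, plus strand: accgctgcttcCTGGCACtcaggtttccat
Mag, chr7:30914913-30914942, minus strand: gcaggcggcccCTGGCACccagggggcaga
Mog, chr17:37023463-37023492, minus strand: agaaatgcccaGTACCAGgcagccactgct
Plekhb1, chr7:100657052-100657081, minus strand: ttgccaaggttCTGGAACtcagcctggcct
Opalin, chr19:41077235-41077264, minus strand: cagaaaataaagACAAAGagaaggaagact

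Other lists give the setting of the region difference. Of all genes tested, 20% and 23.2% were higher in CeA in dependent mice on PLX5622 and control diet. In non-dependent mice these shares were 21.5% and 23.2%. The share of all genes lower in CeA is not given here. Of 32 tested further oligodendrocyte genes outside the 31, 13 were higher and 1 lower in CeA in dependent PLX5622 mice, 19 and 1 in dependent control-diet mice, 12 and 1 in non-dependent PLX5622 mice, and 19 and 1 in non-dependent control-diet mice. Among them Dock10, a guanine exchange factor, Olig2, a lineage factor, and Tppp3, a tubulin-binding protein, were higher in all 4. Of 9 tested genes of oligodendrocyte precursors, 5, 4, 4 and 5 were higher in the same order, among them the proteoglycan Cspg4, by 1.08, 0.94, 1.43 and 1.29, and the factor Sox6, by 0.58, 0.61, 0.69 and 0.52.

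The 12 tested astrocyte genes had medians between -0.02 and 0.00, with members called in both directions. In dependent PLX5622 mice Gfap, an intermediate filament protein, was higher in CeA by 1.29 and Slc1a2, a glutamate transporter, by 0.48, and Aqp4, a water channel, was lower, at -0.58. The summed level of the astrocyte list ran from 4167 to 4760 CPM in CeA of dependent PLX5622 mice, against 3290 to 4007 CPM in mPFC, and from 3900 to 4419 CPM in CeA of dependent control-diet mice, against 3524 to 3770 CPM in mPFC. It ran from 3803 to 4280 CPM in CeA of non-dependent PLX5622 mice, against 3400 to 4051 CPM in mPFC, and from 4043 to 4672 CPM in CeA of non-dependent control-diet mice, against 3426 to 3698 CPM in mPFC. The astrocyte sums were apart in 3 pairs and overlapped in non-dependent PLX5622 mice. The sum of the 8 choroid plexus and meninges genes ran from 58.4 to 4446 CPM over all CeA libraries, against 28.1 to 119 CPM over all mPFC libraries. Of the Schwann cell list, whose genes mark the myelin of peripheral nerves, 3 of 8 were tested, and their medians lay between -0.75 and -0.53. Striatal neuron genes were higher in CeA for 5, 11, 5 and 11 of 12 genes, and central amygdala genes for 7, 8, 8 and 8 of 11. Beside these stand 20%, 23.2%, 21.5% and 23.2% of all genes. Cortical excitatory genes were lower in CeA for 9, 9, 8 and 9 of 10, a count without such a baseline here. The part of these differences of other lists in the difference of the myelin genes was not tested.

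With PLX5622 none of the 27 tested genes passed the test in CeA, although nearly all point estimates were below 0. In non-dependent CeA 0 of 27 tested genes were called by edgeR, beside 0.938% of all genes, with 0 called by DESeq2. At an unadjusted p under 0.05 there were 10 of 27, beside 9.07% of all genes. The 27 log2 differences ran from -0.68 (Myrf) to -0.02 (Gsn), with a median of -0.35, whereas 51.3% of all genes were below 0, with a median of -0.01. In dependent CeA 0 of 27 were called by edgeR, beside 0.401% of all genes, with 0 by DESeq2, and 1 at an unadjusted p under 0.05, beside 5.44% of all genes. There 26 of 27 differences were below 0, with a median of -0.24, against 49.7% of all genes.

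**Figure D3:**
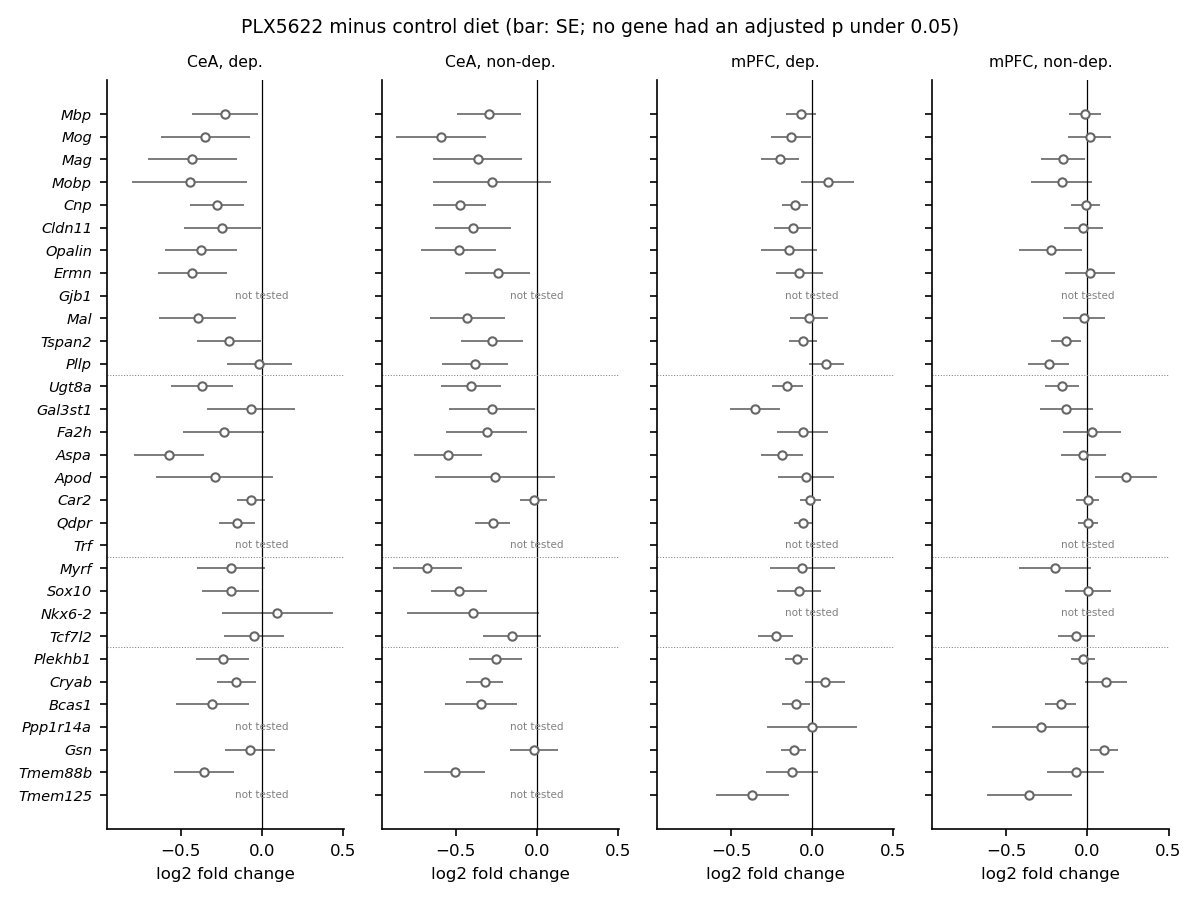
The log2 fold difference PLX5622 minus control diet (x axis) is drawn for each tested gene in 4 panels of region and history, with bars of 1 standard error, and a filled point would mark an adjusted p under 0.05. No point is filled, and in the non-dependent CeA panel all 27 points lie below 0, with a median of -0.35.

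Myrf showed the largest of these differences in non-dependent CeA. Its 4 PLX5622 libraries had 7.58, 9.81, 10.8 and 14.8 CPM and the 6 control-diet libraries 14.6, 16.4 and 21.0 CPM (lowest, median, highest), so only the highest PLX5622 library reached the control range. The log2 difference was -0.68 ± 0.21 (95% interval -1.10 to -0.25), with an edgeR adjusted p of 0.162. In dependent CeA Myrf had 13.1, 14.2, 15.2 and 17.1 CPM on PLX5622, against 12.9, 14.2, 15.6, 20.6 and 21.4 CPM on control diet, a difference of -0.19 ± 0.21 (95% interval -0.60 to 0.22). All its PLX5622 values there lay inside the control-diet range.

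Sox10 was the only tested gene of the list whose PLX5622 libraries in non-dependent CeA all lay below the control-diet ones, at 17.7, 20.0, 25.0 and 28.1 CPM, against 29.5, 31.1 and 35.4 CPM, beside 1.16% of all genes with every library lower. Its log2 difference was -0.48 ± 0.17 (edgeR adjusted p = 0.278), and -0.19 ± 0.18 in dependent CeA. Cnp differed by -0.48 ± 0.16 in non-dependent CeA (adjusted p = 0.301), with 102.7, 104.6, 145.03 and 175 CPM on PLX5622, against 159.5, 185 and 209 CPM on control diet. In dependent CeA it differed by -0.28 ± 0.16, with 131, 164, 169 and 189 CPM on PLX5622, against 152, 179.6, 186, 209 and 256 CPM on control diet. These Cnp groups overlapped in both histories.

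The remaining examples were less far from 0 relative to their errors. Mbp differed by -0.29 ± 0.20 in non-dependent CeA (95% interval -0.68 to 0.09) and by -0.23 ± 0.20 in dependent CeA (-0.62 to 0.17). Mog differed by -0.59 ± 0.28 and -0.35 ± 0.27, Opalin by -0.48 ± 0.23 and -0.38 ± 0.22, and Mobp by -0.28 ± 0.36 and -0.44 ± 0.35 in the same histories. None passed the edgeR test, and all of their groups overlapped. In non-dependent PLX5622 CeA, mouse 13 was the highest of the 4 libraries for 23 of 25 genes with a mean count of at least 20, and mice 47 and 23 were the lowest for 13 and 11. The values of Mbp, 754 and 808 CPM in mice 23 and 47, against 1203 and 1421 CPM in mice 46 and 13, show the same division. The spread within this group is thus wider than in the control-diet group, which the score gives as SDs of 0.37 and 0.17.

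**Figure D4:**
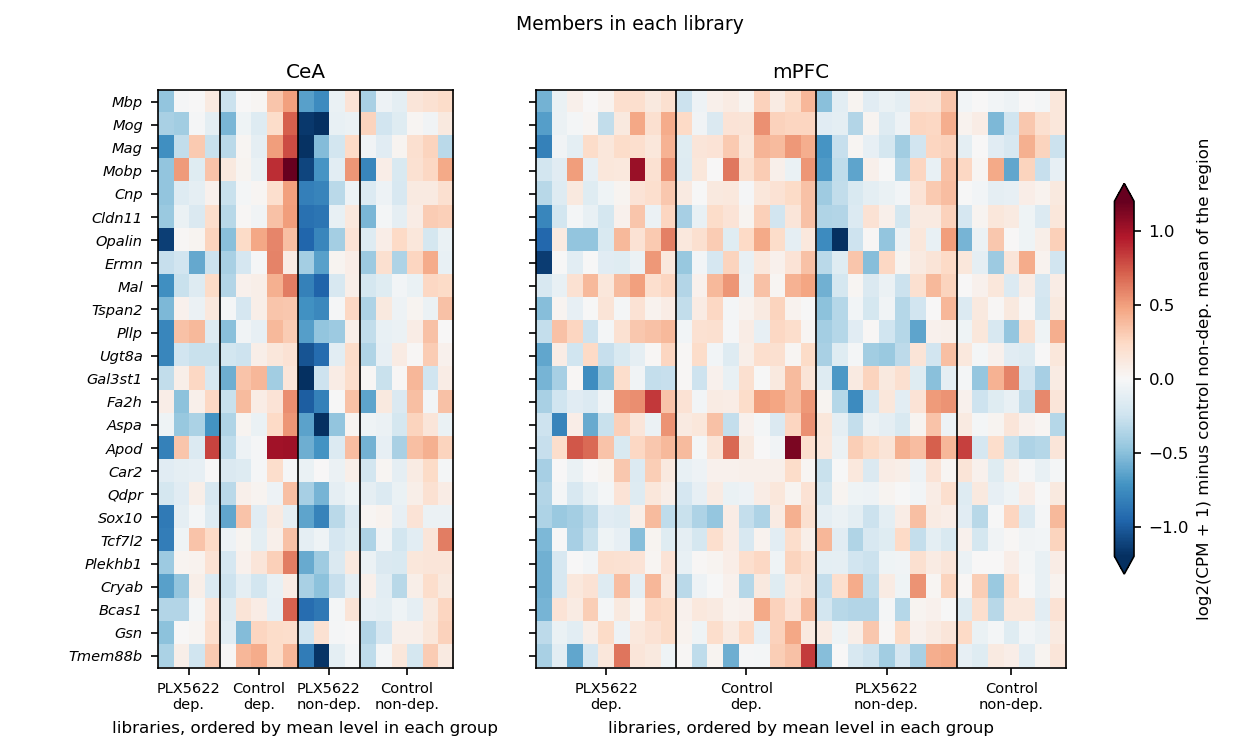
The color shows log2(CPM+1) minus the mean of the non-dependent control-diet libraries of the same region, for 25 genes with a mean count of at least 20 (rows) and the 53 libraries (columns), ordered within a group by mean level. Whole columns share a shade, among them the CeA libraries of PLX5622 mice 47 and 23 at the low end and of control-diet mouse 11 at the high end.

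Averaged over both histories, PLX5622 minus control diet in CeA gave 0 of 27 called by edgeR, beside 0.896% of all genes, with 1 by DESeq2. At an unadjusted p under 0.05 there were 13 of 27, beside 9.32% of all genes. All 27 differences were below 0, with a median of -0.32. Aspa came nearest to the threshold. It had 12.3, 15.0, 15.8 and 20.1 CPM on PLX5622 in dependent CeA, against 16.1, 19.8, 21.5, 24.8 and 30.8 CPM on control diet, and 8.50, 13.1, 14.8 and 21.5 CPM on PLX5622 in non-dependent CeA, against 17.9, 20.1 and 25.4 CPM on control diet. Both pairs overlapped, and the averaged difference was -0.56 ± 0.15 (edgeR adjusted p = 0.0631). DESeq2 called Cnp (-0.38, adjusted p = 0.0486). Without the CeA library of PLX5622 mouse 13, edgeR called Aspa, Cnp, Tmem88b and Ugt8a lower on PLX5622. Leaving out dependent mouse 1 (control diet) or mouse 7 (PLX5622) brought Aspa under the threshold, with adjusted p of 0.0274 and 0.0491, and leaving out mouse 6 (PLX5622) brought Cryab under it, at 0.0422.

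Striatal neuron genes, which mark tissue near the CeA, also had point estimates below 0 with PLX5622. Of 11 tested striatal neuron genes, 0 were above 0 with PLX5622 in either history, 0 were called, and the medians were -0.96 in non-dependent and -0.35 in dependent CeA. The summed level of the 12 listed striatal genes ran from 1038 to 1444 CPM in non-dependent PLX5622 mice, against 963 to 3479 CPM on control diet, and from 1448 to 1941 CPM in dependent PLX5622 mice, against 1401 to 2934 CPM on control diet. Ppp1r1b, the striatal signalling protein DARPP-32, averaged 137.5 ± 38.3 CPM in non-dependent PLX5622 mice, against 279.8 ± 167 CPM on control diet (SD, n = 4 and 6). Further oligodendrocyte genes had medians of -0.18 in non-dependent and -0.08 in dependent CeA, precursor genes 0.00 and 0.10, astrocyte genes -0.03 and 0.04, central amygdala genes -0.25 and -0.05, and cortical excitatory genes 0.12 and 0.21. Choroid plexus and meninges genes had medians of 0.65 in non-dependent and 0.31 in dependent CeA, with 0 of 6 tested genes called in either. Their summed level over 8 genes ran from 1531 to 4446 CPM in non-dependent PLX5622 mice, against 485 to 2233 CPM on control diet, and from 561 to 2163 CPM in dependent PLX5622 mice, against 58.4 to 2566 CPM on control diet. The highest of these, 4446 CPM, was mouse 23, whose myelin score was among the lowest. Mice 13 and 47, with the highest and the lowest myelin score of the non-dependent PLX5622 group, had 2273 and 2462 CPM. Over the 19 CeA libraries the score of the choroid plexus and meninges list correlated with the myelin score at r = 0.13. Other lists went further with it, the central amygdala score at 0.68, the endothelial and mural at 0.65, the astrocyte at 0.52 and the striatal at 0.35. The precursor score stood at -0.06. The cortical excitatory score and that of a list of general neuron genes went against it, at -0.68 and -0.55. The part of the punched tissue's makeup in the values of the myelin genes was not tested.

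**Figure D5:**
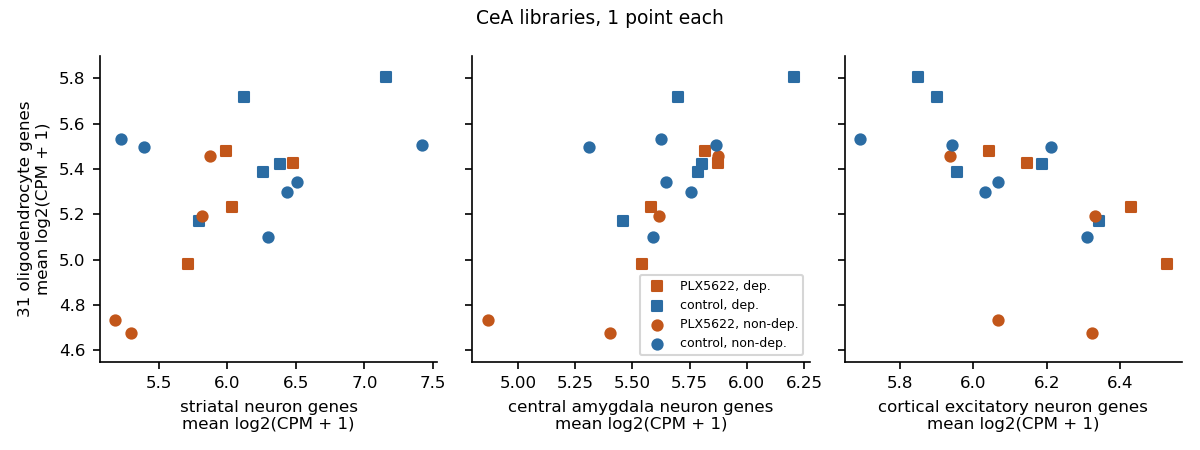
For the 19 CeA libraries, the score of the 31 genes (y axis) is plotted against the score of the striatal, the central amygdala and the cortical excitatory neuron lists (x axis, mean log2(CPM+1)), with the 4 groups of diet and dependence marked. The 2 lowest scores on the y axis, 4.68 and 4.73, belong to non-dependent PLX5622 mice 47 and 23, and the striatal scores of that group end at 5.87, whereas 7.42 is reached in its control-diet group.

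In mPFC the genes lay close to 0 under PLX5622, though most point estimates were below it. Below 0 were 19 of 28 in non-dependent mice, 25 of 28 in dependent mice and 26 of 28 averaged over histories. Among all genes these shares were 48.9%, 47.5% and 47.3%. In non-dependent mice 0 of 28 were called by edgeR, beside 0.624% of all genes, with 0 at an unadjusted p under 0.05 (5.39% of all genes) and 0 by DESeq2, and the median log2 difference was -0.03. In dependent mice 0 of 28 were called, beside 0.908%, with Gal3st1 and Tcf7l2 at an unadjusted p under 0.05 (6.30% of all genes) and 0 by DESeq2, and the median was -0.09. Averaged over histories 0 of 28 were called, beside 1.14% of all genes, with 4 at an unadjusted p under 0.05 (7.74% of all genes) and 0 by DESeq2. Mbp had 494, 765 and 847 CPM in dependent PLX5622 mice, against 616, 787 and 966 CPM on control diet, and 519, 695 and 923 CPM in non-dependent PLX5622 mice, against 703, 723 and 809.5 CPM on control diet. The Mbp groups overlapped in both histories. Its 95% intervals ran from -0.25 to 0.11 in dependent and from -0.21 to 0.18 in non-dependent mPFC, and those of Cnp from -0.27 to 0.05 and from -0.18 to 0.17. Myrf, Opalin, Mobp and Mog had differences between -0.23 and 0.10. All 12 microglia genes fell in these same libraries, with medians of -4.09 in dependent and -4.14 in non-dependent mice.

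Dependence was not accompanied by a called change of any gene of the list that was tested, 27 in CeA and 28 in mPFC. In CeA, dependent minus non-dependent mice gave 0 of 27 called by edgeR on PLX5622, beside 0.0171% of all genes, with 2 at an unadjusted p under 0.05, and 0 of 27 on control diet, beside 0.00853%, with 0 at an unadjusted p under 0.05. Averaged over diets in CeA it gave 0 of 27, beside 0.0256%, with 3 at an unadjusted p under 0.05. In mPFC it gave 0 of 28 on PLX5622, beside 0% of all genes, with 3 at an unadjusted p under 0.05, and 0 of 28 on control diet, beside 0.00811%, with 1. Averaged over diets in mPFC it gave 0 of 28, beside 0.219%, with 5. Over all genes, between 5.89% and 9.24% had an unadjusted p under 0.05 in these 6 comparisons. DESeq2 called 0 genes of the list in all 6.

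Most point estimates for dependence were small and above 0. The medians in CeA were 0.24 on PLX5622, with 24 of 27 above 0, and 0.12 on control diet, with 23 of 27. In mPFC they were 0.05 on PLX5622, with 19 of 28 above 0, and 0.11 on control diet, with 25 of 28. Mbp differed by 0.20 and 0.13 in CeA on PLX5622 and control diet, and by 0.05 and 0.11 in mPFC. Cnp differed by 0.32 and 0.12 in CeA and by 0.05 and 0.14 in mPFC, and Myrf by 0.49 and 0.01 in CeA and by 0.18 and 0.04 in mPFC. For Mog these were 0.38, 0.13, 0.03 and 0.18, for Opalin 0.39, 0.28, 0.24 and 0.16, and for Mobp 0.34, 0.51, 0.42 and 0.16. In mPFC, Bcas1 averaged over diets differed by 0.21 ± 0.06 (edgeR adjusted p = 0.210). The libraries of the 2 histories overlapped for every one of these 6 examples. With the same contrast the choroid plexus and meninges list had medians of -0.95 in PLX5622 CeA and -0.71 in control-diet CeA, and its part in the values was not tested. In each dependent group 3 libraries carried spike-in RNA, none of the non-dependent libraries did, and with those 12 left out Bcas1 in mPFC passed, at 0.27 (edgeR adjusted p = 0.0268). Averaged over diets, Bcas1 in mPFC also passed without dependent PLX5622 mouse 37, at 0.25 (adjusted p = 0.0181). Ppp1r14a, below the filter in CeA, passed there averaged over diets at 1.63 without dependent PLX5622 mouse 8 (edgeR adjusted p = 0.0386). With no filter on low counts it passed in the same contrast at 1.47 (edgeR adjusted p = 0.00469).

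Whether the effects differed between groups was tested as interactions in edgeR. For the diet effect by history, 0 of 27 genes were called in CeA and 0 of 28 in mPFC, beside 0% of all genes in both, with 0 at an unadjusted p under 0.05 and 0 by DESeq2. The diet effect by region gave 0 of 29 called in dependent mice, beside 0.00767% of all genes, with 0 at an unadjusted p under 0.05, and a median of -0.16. In non-dependent mice it gave 0 of 29, beside 0.046%, with 6 at an unadjusted p under 0.05, beside 7.56% of all genes. There all 29 estimates were below 0, from -0.60 to -0.02, with a median of -0.27. The dependence effect by region gave 0 of 29 on PLX5622 and 0 of 29 on control diet, beside 0% of all genes in both, with 1 at an unadjusted p under 0.05 in each. Over all genes, between 2.87% and 5.21% had such a p in the other 5 interactions. DESeq2 called 0 of 29 in each test by region. The smaller number of genes called higher in CeA on PLX5622 was therefore not shown to be a difference between diets.

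Within a group, 1 library was often the lowest or the highest for many of the genes. In CeA, mouse 7 was the lowest of the 4 dependent PLX5622 libraries for 20 of 25 genes with a mean count of at least 20, and mouse 29 the highest for 13. Among dependent control-diet mice, mouse 1 was the lowest for 20 and mouse 11 the highest for 16, and among non-dependent control-diet mice, mouse 17 was the lowest for 14. The score of mouse 11 was 5.81, against 5.17 in mouse 1 of the same group. In mPFC, mouse 37 was the lowest of the 9 dependent PLX5622 libraries for 21 of the 25 genes, whereas among the 7 non-dependent control-diet libraries no library was the lowest for more than 6. In the 4 non-dependent PLX5622 libraries of CeA, Fa2h ran from 17.2 to 45.1 CPM and Tcf7l2 from 27.0 to 30.1 CPM. Other lists differed between the same libraries. In all 4 CeA groups, the library with the highest score of the 31 genes exceeded the one with the lowest in the scores of the central amygdala list, by 0.04 to 0.75, of the endothelial and mural list, by 0.12 to 0.38, and of the astrocyte list, by 0.03 to 0.29. The score of the further oligodendrocyte genes outside the 31 was also higher there in all 4 groups, by 0.15 to 0.59. The cortical excitatory score was lower there in all 4 groups, with differences of -0.62 to -0.39, and so was the general neuron score, with -0.13 to -0.05. In mPFC the striatal and the central amygdala scores were higher in the library of highest score in 3 of 4 groups each, and the cortical excitatory score in 2 of 4. The part of these lists in the spread of the myelin genes was not tested.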

How the data were processed

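The authors deposited raw counts, 1 whole number per Ensembl gene, for 1 library per sample (19 CeA and 34 mPFC). The submitters' processing notes name HTSeq 0.11.0, Bowtie2 2.3.4.3, FastQC 0.11.8, R 3.5.1 and DESeq2 1.10.1, with the build mm10 (GRCm38.p6). Settings, use of strand and removal of duplicates are not stated there, so values of genes overlapped on the other strand are uncertain. Per the labels' protocols the libraries are biased to the 3' end of transcripts. The CeA files list 56350 gene identifiers and the mPFC files 54547. The share of reads in genes was 71.6% to 73.4% in CeA and 74.1% to 75.5% in mPFC, and the remaining summary entries and 92 spike-in entries stayed out of library sizes and tests.

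CPM were computed from the counts in genes, with library sizes scaled by TMM over both regions together. Chow and ethanol entries of the labels gave the groups. edgeR 4.0.16 (R 4.3.3) fitted quasi-likelihood models with 1 coefficient per group, TMM scaling and filterByExpr (count 10, total 15). Diet and dependence were fitted within a region, and region and the interactions by region over all 53 libraries. Tests were two-sided, with Benjamini-Hochberg adjustment over all genes tested and a threshold of 0.05. The fits were also run on simulated counts with planted changes, but the share of these recovered is not given here. Within a region, p-values measure the spread between mice. In the fit over all 53 libraries they measure the spread between libraries, with 2 libraries of 1 mouse taken as independent. With the mouse as a block they measure the spread of the region difference between paired mice. DESeq2 1.42.0, other scaling, filters, 1 surrogate variable (sva 3.50.0), the 2 groups alone, libraries without spike-in RNA and each library left out were tried.

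The members and lists were chosen with earlier results of these data known. Every member is accounted for. Mbp, Mobp, Mog, Cnp, Myrf and Opalin are given in every comparison, with up to 8 called members of smallest p, and up to 4 called members of other lists. Ugt8a, Sox10, Aspa, Fa2h, Gfap, Slc1a2 and Aqp4 were added after their values were seen, as was the comparison of other lists between the libraries of highest and lowest score.

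Per the labels' protocols both regions came from each brain, so libraries of the 2 regions with the same number, diet and history were paired, 15 in all. Number 16 has different diets in the 2 regions and was never paired. Deviations of paired libraries from their group means correlated at -0.0537 to 0.105 (median 0.0234) over genes. No 2 libraries of the same group agreed within sampling noise, and libraries of different groups were not compared in this way.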

Additional observations from a re-analysis of the deposited data

Results flagged for a closer look

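The score and 16 genes, 17 measures in all, were looked at in each of the 8 groups of 4 to 9 libraries. In 8 cases (5.88%) 1 library stood apart from the others, and chance alone gives about 1 in 20. In mPFC of dependent PLX5622 mice, mouse 37 was low, with a score of 4.38 where the next library had 4.76. The same library was the lowest for Mbp, at 494 CPM next to 693 CPM, and for Bcas1, at 56.3 CPM next to 82.3 CPM. In that group mouse 38 was the highest for Mobp, at 83.8 CPM next to 58.9 CPM.

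Among the non-dependent control-diet mPFC libraries, whose values lay close together, mouse 35 had the highest score, 4.92 next to 4.84, and the highest Mbp, 809.5 CPM next to 739 CPM. Mouse 34 was the highest there for Fa2h, at 26.4 CPM next to 19.3 CPM, and mouse 20 for Apod, at 75.0 CPM next to 48.8 CPM.

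Spike-in RNA, which no comparison used, was found in 12 libraries, all from dependent mice, where the lowest held 11745 spike-in counts. The next library held 316.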

How the results depend on the processing

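Of the log2 differences recomputed under the alternatives, 4870 kept their direction and their side of the threshold, 16 came past it, 15 were no longer past it and 41 changed sign; of the counts of called genes 933 stayed within 1.5 times and 14 moved. The cause was not tested for any of these. With the mouse as a replicate block, the paired fit called 11 genes in place of 20 for CeA minus mPFC in non-dependent control-diet mice, on 3 pairs. It moved no other count by over 1.5 times, but the other region counts fell too. They were 10 in place of 15 in dependent PLX5622 mice, 8 in place of 12 in non-dependent PLX5622 mice and 16 in place of 21 in dependent control-diet mice. The score difference in dependent control-diet mice was 0.38 as a median over genes, in place of a mean of 0.58. With no filter on low counts, PLX5622 minus control diet called 2 genes in non-dependent CeA (Cnp and Cryab) and 7 averaged over histories in CeA (Aspa, Cnp, Cryab, Ermn, Qdpr, Tmem88b and Ugt8a), where DESeq2 called 1. The dependence effect averaged over diets called 1 with no filter in CeA (Ppp1r14a) and 1 in mPFC (Bcas1), and 1 in mPFC without spike-in libraries (Bcas1).

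Leaving out 1 library at a time, the count called in either direction for CeA minus mPFC ran from 7 to 14 in non-dependent PLX5622 mice. The 7 came without the CeA library of mouse 13 and include Ugt8a and Aspa, which were lower in CeA. The averaged PLX5622 count in CeA ran from 0 to 4, and the averaged dependence count from 0 to 1 in CeA and from 0 to 1 in mPFC. Signs changed only for differences near 0. In the region comparison of non-dependent PLX5622 mice Mog ran from -0.095 to 0.35. For dependence in control-diet CeA, Mog ran from -0.11 to 0.25, Cnp from -0.0099 to 0.19 and Myrf from -0.11 to 0.080. For PLX5622 in non-dependent mPFC, Mbp ran from -0.062 to 0.035, Mog from -0.065 to 0.066 and Cnp from -0.061 to 0.032, and Mobp from -0.047 to 0.16 in dependent mPFC and from -0.10 to 0.0095 averaged over histories. For dependence in mPFC, Myrf ran from -0.036 to 0.13 on control diet and Mog from -0.032 to 0.10 on PLX5622. With 1 surrogate variable, dependence gave -0.042 for Mog and -0.089 for Myrf in control-diet CeA, -0.0055 for Myrf in control-diet mPFC and -0.023 for Mog in PLX5622 mPFC, and PLX5622 gave -0.016 for Mog in non-dependent mPFC. Without spike-in libraries, PLX5622 gave -0.12 for Mobp and 0.0625 for Opalin in dependent mPFC. Genes with few counts, such as Gjb1, Nkx6-2, Ppp1r14a and Tmem125, are limited by depth, and count-based limits reflect counting error alone.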
